A study of Caenorhabditis briggsae with 16 samples.

Results

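Mature miRNAs were compared between 4 hours of *C. briggsae* larval development at which the guide strand Cbr-Mir-92-o67_3p was low and 4 hours at which it was high. The low hours were 20, 21, 26 and 27 h after plating, and the high hours were 23, 24, 29 and 30 h, which gives 8 of the 16 hourly libraries of the course. All libraries came from whole untreated animals of the wild-type strain AF16, plated as L1 larvae and grown at 25°C, with 1 library per hour from 18 to 33 h and no replicates. The low and the high hours alike span a pair of cycles, the first from 20 to 24 h and the second from 26 to 30 h. The hours were chosen on the values of Cbr-Mir-92-o67_3p itself, so the Mir-92 strands are described here without a test and are left out of every tally. The question for all other arms was which of them differed in the same or in the opposite direction, and whether they did so in each cycle.

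A miRNA hairpin is cut into a duplex of a 5p and a 3p strand. The strand that is loaded into Argonaute, usually the abundant one, is the guide, and the other is the passenger strand (miR*), which is as a rule degraded quickly. Nematode larvae pass through repeated molts, and many of their transcripts rise and fall once per larval stage. The miR-92 family of *C. briggsae* consists of paralogues of *C. elegans* miR-235. In the deposited table most passenger strands carry an asterisk, as in Cbr-Mir-92-o67_5p*. Tallies of passenger and guide strands below go by this mark alone, which does not always follow abundance.

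The total count per library was between 9692586 and 15697671 over the 8 hours compared. Values are given as normalized counts, that is, a count's share of its library's total, scaled to the mean total of the 16 libraries. The 21 h library, a low hour, lay farthest from its neighbours, with a median deviation over arms of 0.26 on the log2 scale against 0.084 to 0.18 for the other hours from 19 to 32 h. The Mir-92 strands together took 0.996% to 1.66% of the counts at the low hours and 3.52% to 5.62% at the high hours. Of the muscle miRNAs Mir-1 and Mir-133, 3 of 4 arms entered the test, none of them called, and their summed level was 109159 to 153618 normalized counts at the low and 104136 to 128449 at the high hours. For the neuronal Mir-124, 3 of 6 arms entered the test, none called, with sums of 882 to 1642 at the low and 797 to 1104 at the high hours. Both pairs of ranges overlapped. In whole animals, fewer cells of a type and less RNA per cell cannot be told apart. Neighbouring hours are not independent samples, and the p-values below measure only the spread of these 8 libraries about the fitted line.

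The guide strand that set the hours stood at 148460, 181418, 110779 and 175500 normalized counts at 20, 21, 26 and 27 h. At 23, 24, 29 and 30 h it stood at 408678, 392648, 591541 and 642156. The high hours exceeded the low hours by 1.17 on the log2 scale in the first cycle and by 2.03 in the second, after removal of a linear trend. Its paralogue Cbr-Mir-92-o68_3p stood at 23236, 25221, 13338 and 23306 normalized counts at the low hours and at 48640, 46204, 61171 and 59391 at the high hours. The corresponding differences were 0.98 and 1.78. Neither passenger strand shared this division of the hours. Cbr-Mir-92-o67_5p* was at 46.4, 196, 55.9 and 241 normalized counts at the low and at 142, 50.9, 210 and 82.4 at the high hours. In both cycles it was thus high at the second of the low hours and at the first of the high hours. Cbr-Mir-92-o68_5p* was at 140, 166, 175 and 333 at the low and at 257, 219, 289 and 278 at the high hours, and the groups overlapped.

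**Figure D1:**
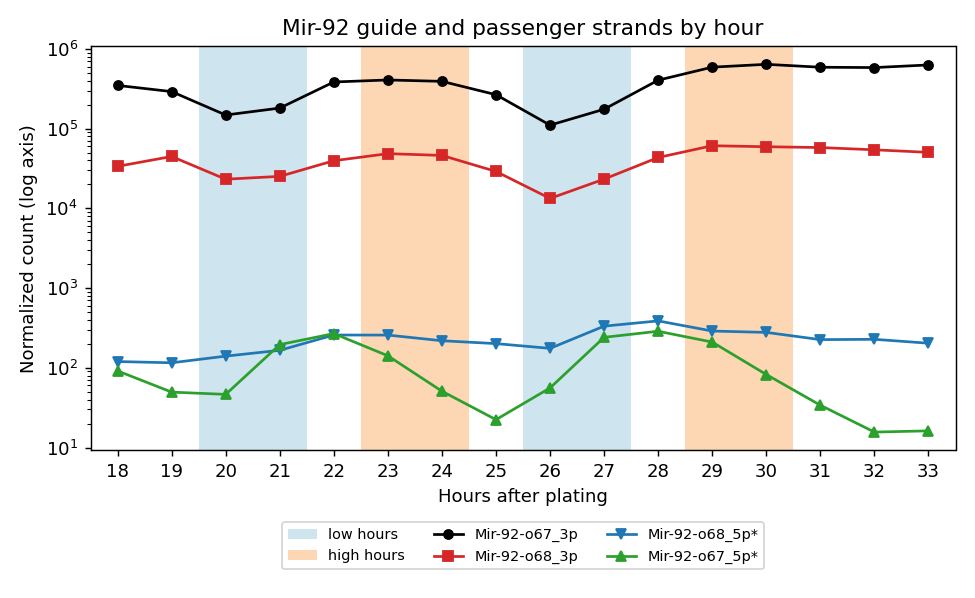
Normalized counts (log axis) of the 4 Mir-92 strands at each of the 16 hours after plating (points, 1 library each), with the low hours shaded blue and the high hours orange. Both 3p guides dip at 20 and 26 h, whereas Mir-92-o67_5p* is highest at 22 and 28 h, between the low and the high hours.

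Of the other 309 arms that passed the filter (10 or more counts in 4 or more of the 8 libraries), 1 rose and 6 fell from the low to the high hours at an adjusted p under 0.05 (edgeR's quasi-likelihood test with a linear time term, Benjamini-Hochberg over 313 arms). These are 0.324% and 1.94% of the arms tested, or 2.27% in either direction. The 8 normalized counts were fully separate between the groups in 12 arms that were higher at the high hours (3.88%) and 13 that were lower (4.21%). The arm that rose was the passenger strand Cbr-Mir-7593_5p*. The 6 rows that fell stand for 4 arms: the passenger strands Cbr-Let-7-P5_3p*, Cbr-Mir-10-P3m_3p* and Cbr-Mir-248-v1_5p*, and Cbr-Mir-788-v1_3p, since the last pair also have a -v2 row with the same or, for Mir-788, nearly the same counts. At an unadjusted p under 0.05, 12 arms were higher and 26 lower. The calls depend on single hours. Without the 23, 24, 26, 27 or 29 h library edgeR called 0 arms, with 6 to 19 higher and 15 to 22 lower at an unadjusted p under 0.05, and without the 21 h library it called 2 higher and 3 lower. Without -v2 rows 3 rows fell, and with library totals taken without the Mir-92 strands 4 rose and 6 fell. The counts were 8 and 15 with DESeq2, and 19 and 21 in edgeR with cycle in place of the time term.

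Each cycle was then inspected on its own, with an arm's linear trend removed from log2(normalized count + 8). An arm was counted where both high hours lay on 1 side of both low hours in each cycle, with a difference of means of at least 0.3 each time. By this description, which is no test, 5 arms differed in the direction of the guide (1.62% of 309) and 21 in the opposite direction (6.8%), or 18 without -v2 rows. Both directions together make 8.41%. The smaller of the cycle differences just inside the limit was 0.41 for Cbr-Mir-357-P2_3p and 0.30 for Cbr-Mir-29-P1_3p, and just outside it 0.26 for Cbr-Mir-64-o1_3p* and 0.25 for Cbr-Let-7-P8_3p*, in the guide's and in the opposite direction respectively. Without the 21 h library the counts were 5 and 18. Without the 26 h library 13 arms differed in the guide's direction, and without the 27 h library 8. Leaving out an hour leaves 1 hour on its side of that cycle, so the rule is then easier to meet. In all 8 libraries and regardless of overlap, 8 arms had a difference of at least 0.3 in the guide's direction in both cycles and 23 in the opposite direction. A further 60 were higher at the high hours of the first cycle and lower at those of the second, and 10 the reverse. With the trend removed, differences of that size thus changed direction between the cycles in more arms than kept it. When no trend was removed, 27 arms differed in the guide's direction and 27 in the opposite direction, among them 4 of the 5 and 13 of the 21. With the trend taken from all 16 libraries, all 5 and 16 of the 21 were kept.

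**Figure D2:**
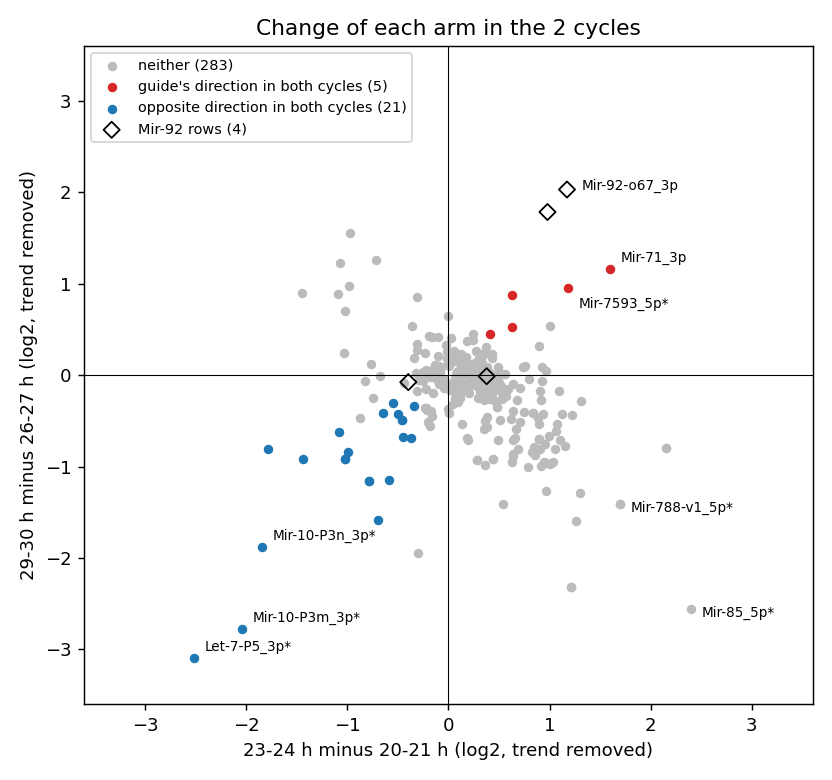
Each point is 1 of the 313 tested arms, with the log2 difference of high minus low hours in the first cycle (x axis) and in the second (y axis) after removal of the arm's linear trend. Arms that differed in the guide's direction in both cycles (5) are red, those in the opposite direction (21) blue, and the 4 Mir-92 rows are open diamonds. Mir-10-P3m_3p* and Let-7-P5_3p* lie far to the lower left.

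The difference farthest from that of the guide was seen in a passenger strand of the let-7 family, whose guides time larval cell fates in *C. elegans*. Cbr-Let-7-P5_3p* stood at 8723, 7346, 6530 and 4851 normalized counts at 20, 21, 26 and 27 h. It stood at 793, 1367, 849 and 276 at 23, 24, 29 and 30 h, so all high hours lay below all low hours. From low to high hours the strand fell by 2.73 in log2 units (SE 0.39, edgeR adjusted p = 0.037), to a level 6.64-fold lower. The first cycle gave -2.51 and the second -3.10. It was called in 14 of 20 alternative fits, with adjusted p between 2.0e-08 and 0.20, the latter when all 16 libraries entered edgeR. Its guide Cbr-Let-7-P5_5p did not share the pattern, with 82167, 133818, 167987 and 180206 normalized counts at the low and 126490, 128160, 171048 and 156691 at the high hours (log2 difference -0.19, standard error 0.16).

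All 4 let-7 strands with an asterisk were lower at the high hours by point estimate. Each was lower at an unadjusted p under 0.05 in edgeR, as were 26 of all 309 arms, and 1 of the 4 after adjustment. Cbr-Let-7-P6_3p* stood at 15559, 12974, 12437 and 9354 normalized counts at the low and at 5576, 7138, 6703 and 4226 at the high hours, without overlap (log2 difference -0.91, standard error 0.20, adjusted p = 0.065 from edgeR). Its differences in the cycles were -0.99 and -0.84. For Cbr-Let-7-P8_3p* and Cbr-Let-7-P7_3p* the log2 differences were -0.49 and -0.31. The 4 let-7 strands without an asterisk had log2 differences from -0.19 to 0.21. Of these 1, Cbr-Let-7-P8_5p, was higher at an unadjusted p under 0.05 in edgeR (log2 difference 0.21), and none was called after adjustment. Cbr-Let-7-P6_5p, for example, was at 2323 to 2953 normalized counts at the low and at 2615 to 3134 at the high hours. In this hairpin the strand with the asterisk, Cbr-Let-7-P6_3p*, was the more abundant one at all 8 hours. Over the 8 let-7 arms the median was -0.25 on the log2 scale, and over all 309 arms it was 0.066.

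A pair of Mir-10 passenger strands had the same form. Cbr-Mir-10-P3m_3p* stood at 1546, 1613, 1732 and 1389 normalized counts at the low hours. At the high hours it stood at 253, 413, 352 and 97.9. It fell by 2.36 in log2 units (SE 0.42, edgeR adjusted p = 0.040), to a level 5.12-fold lower, with -2.04 in the first cycle and -2.78 in the second. This arm was called in 10 of 20 alternative fits, with adjusted p between 1.3e-05 and 0.46, the latter from edgeR with all 16 libraries. Cbr-Mir-10-P3n_3p* was more abundant, at 59464, 37391, 46580 and 21304 normalized counts at the low and at 5811, 19878, 6538 and 7544 at the high hours. Its log2 difference of -1.71 (standard error 0.48) did not pass the test (adjusted p = 0.13 from edgeR), although the groups did not overlap and the cycles gave -1.85 and -1.88. The hour at which this strand was lowest, 23 h in the first cycle and 29 h in the second, was 3 h after its highest in both. Its partner Cbr-Mir-10-P3n_5p had a log2 difference of -0.21 and Cbr-Mir-10-P3m_5p one of -0.24, neither called. The remaining Mir-10 passenger strands, Cbr-Mir-10-P1_3p* and Cbr-Mir-10-P2_3p*, had values of -0.41 and 0.12. Over the 8 Mir-10 arms 1 fell, none rose, and the median was -0.23.

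**Figure D3:**
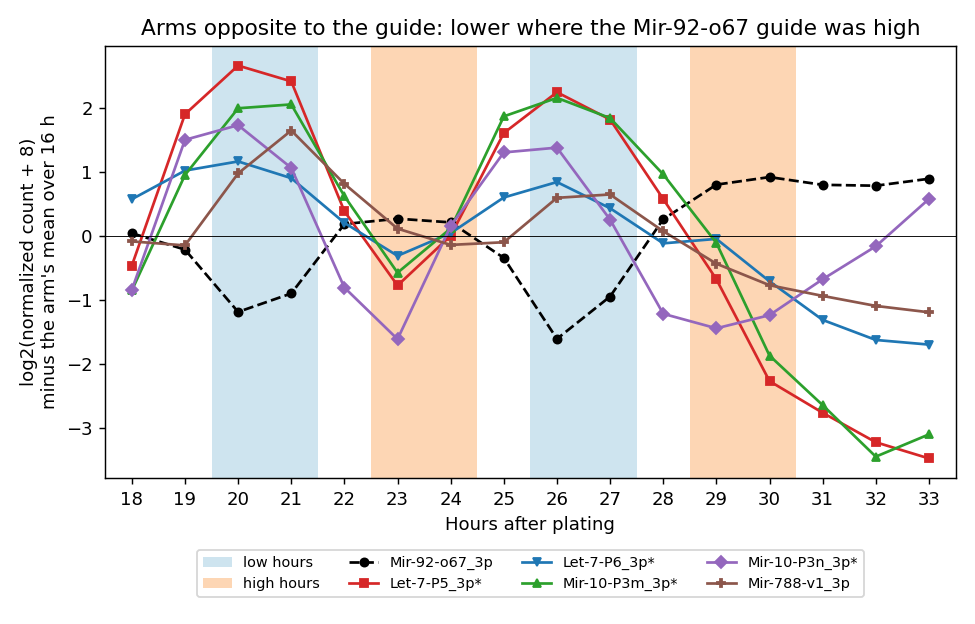
Lines show log2(normalized count + 8) minus each arm's own mean over 16 h, against hours after plating, for 5 arms that differed in the opposite direction in both cycles and for the Mir-92-o67_3p guide (dashed). Low hours are shaded blue and high hours orange. Let-7-P5_3p*, Let-7-P6_3p* and Mir-10-P3n_3p* are highest at 20 and 26 h, where the guide is lowest, and the let-7, Mir-10-P3m and Mir-788 strands lie below their 30 h values from 31 to 33 h.

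Mir-788 was the locus at which a strand other than a passenger fell. Cbr-Mir-788-v1_3p stood at 73551, 117197, 56403 and 58492 normalized counts at the low hours. It stood at 40356, 33821, 27579 and 21825 at the high hours. It fell by 0.98 in log2 units (SE 0.19, edgeR adjusted p = 0.045), to a level 1.98-fold lower, with -1.02 and -0.92 in the cycles. The call held in 7 of 20 alternative fits (adjusted p between 0.00030 and 0.22) and was lost, at 0.052 in edgeR, once the -v2 rows were left out. Its passenger strand Cbr-Mir-788-v1_5p* behaved differently in the cycles. It was at 24759 and 13793 normalized counts at 20 and 21 h and at 35312 and 30221 at 23 and 24 h, but at 21559 and 13058 at 26 and 27 h and at 4433 and 2647 at 29 and 30 h. After removal of the trend the first cycle gave 1.70 and the second -1.41. The difference between the cycles was itself past the threshold (interaction -3.12 in log2 units, SE 0.26, edgeR adjusted p = 0.0043).

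That test of the cycles against each other called 3 of 309 rows (0.971%), with 87 at an unadjusted p under 0.05. Besides both rows of Mir-788 5p it called Cbr-Mir-85_5p*, at 7.88 and 6.19 normalized counts at 20 and 21 h, 346 and 563 at 23 and 24 h, 2471 and 3538 at 26 and 27 h, and 3783 and 2139 at 29 and 30 h. This passenger strand was scarce at the first low hours, with 5 counts in the lowest library (interaction -5.95 in log2 units, SE 0.68, edgeR adjusted p = 0.017). The number of arms called depended on the libraries, with 44 called without the 20 h, 30 without the 29 h, 9 without the 21 h and 5 without the 23 h library. Without the 21, 24, 26 or 27 h library 2 of the 3 rows kept their call, and without each of the others all 3 did.

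The Mir-36 family, the counterpart of the embryonic miR-35 family of *C. elegans*, supplied 6 of the 21 arms in the opposite direction. Of its 60 arms 41 were tested, so 14.6% were in this class against 6.8% of all arms, 0 in the guide's direction, and none was called (adjusted p of 0.075 or more from edgeR for those named here). The median of the family was 0.015 on the log2 scale. Several of its 3p rows had similar counts hour by hour but were taken as separate members here. Cbr-Mir-36-o7a_3p and Cbr-Mir-36-o9_3p, for example, had 191 and 187 counts at 20 h and 57 and 56 at 30 h. Whether such rows share reads was not tested. In Cbr-Mir-36-o24_5p*, Cbr-Mir-36-o24_3p, Cbr-Mir-36-o22_3p and Cbr-Mir-36-o20_5p the low and high hours of the second cycle overlapped before the trend was removed. These arms were counted only through that removal, so the share of 14.6% depends on it. With the trend removed, both strands of a pair of its hairpins differed. Cbr-Mir-36-o24_5p* stood at 5522, 4476, 6731 and 5339 normalized counts at the low and at 2423, 2004, 2587 and 5604 at the high hours (log2 difference -1.16, standard error 0.31). The 30 h value lay within the range of the low hours. Its guide Cbr-Mir-36-o24_3p stood at 18796, 24135, 23299 and 29052 at the low and at 17644, 16582, 18950 and 25547 at the high hours (-0.46, standard error 0.14), and the groups overlapped. Cbr-Mir-36-o22_5p* and Cbr-Mir-36-o22_3p had log2 differences of -0.93 and -0.54.

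Cbr-Mir-36-o20_5p was scarce, at 187, 200.5, 222 and 169 normalized counts at the low and 58.0, 66.0, 94.1 and 175 at the high hours. The 30 h library again lay apart (-1.39, standard error 0.35, adjusted p = 0.11 from edgeR). In Cbr-Mir-36-o25_3p, in contrast, the groups were separate, with 1568, 1460.4, 1665 and 1665 normalized counts at the low and 775, 890, 669 and 354 at the high hours. Its log2 difference was -1.13 (standard error 0.26, adjusted p = 0.075 from edgeR), with -0.69 in the first cycle and -1.59 in the second. The passenger strand of this hairpin had a log2 difference of -0.18 (standard error 0.58).

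Further arms counted in the opposite direction, after removal of the trend, belonged to other families. The abundant passenger strand Cbr-Mir-52-P1_3p* stood at 125747, 145286, 117979 and 102593 normalized counts at the low and at 66249, 81336, 52539 and 31147 at the high hours (log2 difference -0.86, standard error 0.21, adjusted p = 0.092 from edgeR). Cbr-Mir-86_3p* stood at 25246, 27333, 24646 and 27914 at the low and at 19797, 18522, 18427 and 12692 at the high hours (-0.53, standard error 0.15). Neither arm overlapped between the groups, whereas their guides had differences of 0.020 and 0.066. The called strand Cbr-Mir-248-v1_5p* rested on 4 to 28 counts per library, with 24.5, 27.2, 26.5 and 26.4 normalized counts at the low and 10.8, 10.3, 8.13 and 5.15 at the high hours (log2 difference -1.47, standard error 0.25, adjusted p = 0.038 from edgeR). The others were Cbr-Mir-2231_5p*, Cbr-Mir-29-P1_3p, Cbr-Mir-96-P2p_5p and Cbr-Mir-193-P2-v1_5p*, with log2 differences of -0.55, -0.43, -0.37 and -0.88. In all 4 the low and high hours overlapped before the trend was removed. In Cbr-Mir-2231_5p* and Cbr-Mir-29-P1_3p they overlapped within each cycle as well, so both arms were counted only after that removal. Cbr-Mir-193-P2-v1_5p*, with 1 to 30 counts per library, was likewise counted through the removal of its trend alone. Its normalized counts were higher at the high hours of both cycles, at 0.876 and 2.48 against 3.31 and 6.36 in the first and at 26.5 and 23.0 against 34.9 and 33.5 in the second.

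In the guide's direction, Cbr-Mir-7593_5p* passed the test. It stood at 119, 94.1, 111 and 105 normalized counts at the low and at 280, 206, 204 and 209 at the high hours, from 76 to 338 counts per library. All high hours lay above all low hours. The strand rose by 1.13 in log2 units (SE 0.17, edgeR adjusted p = 0.037), to a level 2.19-fold higher, with 1.19 in the first cycle and 0.95 in the second. It was called in 14 of 20 alternative fits (adjusted p between 1.4e-07 and 0.17), and with all 16 libraries its adjusted p was 0.12 in edgeR. The guide Cbr-Mir-7593_3p stood at 68002 to 96772 normalized counts at the low and at 71117 to 94610 at the high hours (log2 difference 0.16).

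Cbr-Mir-71_3p had the largest difference of the 5 arms in the guide's direction. In *C. elegans* miR-71, whose guide is the 5p strand, acts in lifespan and stress responses. Cbr-Mir-71_3p stood at 13028, 6176, 11847 and 7411 normalized counts at the low and at 27503, 22945, 17662 and 21394 at the high hours, again without overlap. The log2 difference was 1.33 (standard error 0.28, adjusted p = 0.065 from edgeR), with 1.59 and 1.16 in the cycles. The adjusted p was below 0.05 in 6 of 20 alternative fits (range 0.0011 to 0.33), including edgeR with all 16 libraries (0.028). The more abundant strand Cbr-Mir-71_5p was at 73669, 47492, 77889 and 32180 normalized counts at the low and 86581, 117020, 43810 and 86850 at the high hours, and its groups overlapped (0.72, standard error 0.38). Its lowest values were at 21 and 28 h, against 21 and 27 h for the 3p strand.

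Cbr-Mir-253_5p* stood at 248, 230.2, 283 and 202 normalized counts at the low and at 392, 382, 452 and 473 at the high hours (log2 difference 0.75, standard error 0.16, adjusted p = 0.065 from edgeR). Its guide Cbr-Mir-253_3p had a log2 difference of 0.34. For Cbr-Mir-31_3p* the low hours gave 2785, 3217, 2366 and 1922 and the high hours 3702, 4018, 2562 and 2559, which overlapped across the cycles but not within either (0.58, standard error 0.13, adjusted p = 0.065 from edgeR). Cbr-Mir-357-P2_3p, at 6 to 22 counts per library, was the remaining arm. With library totals taken without the Mir-92 strands, Cbr-Mir-71_3p, Cbr-Mir-253_5p* and Cbr-Mir-31_3p* each reached an adjusted p of 0.048 in edgeR.

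**Figure D4:**
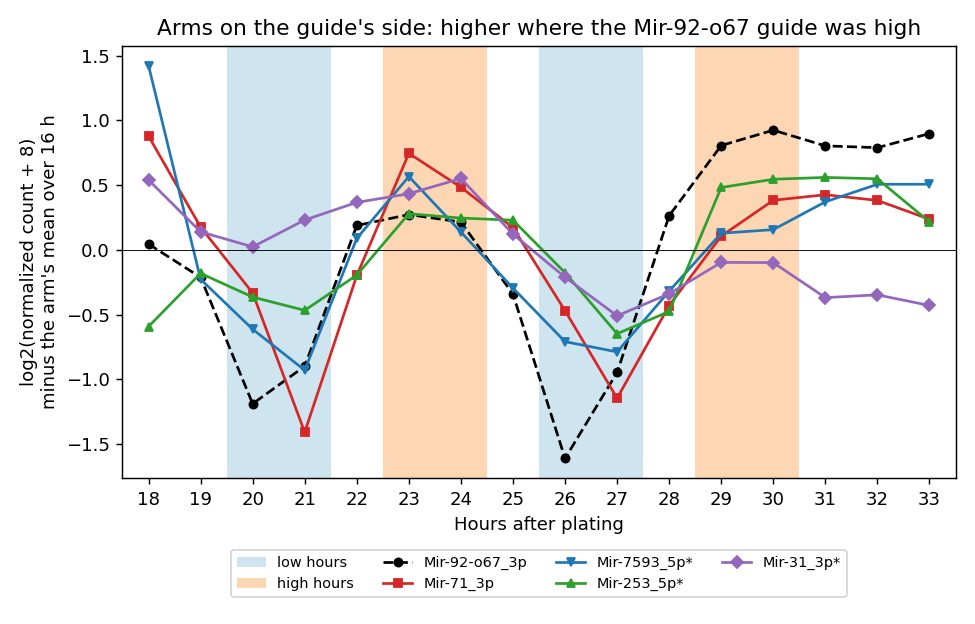
Lines show log2(normalized count + 8) minus each arm's own mean over 16 h, against hours after plating, for 4 arms that differed in the guide's direction in both cycles and for the Mir-92-o67_3p guide (dashed). Low hours are shaded blue and high hours orange. The guide is lowest at 20 and 26 h, Mir-71_3p and Mir-7593_5p* at 21 and 27 h.

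Many of these arms carried the asterisk of a passenger strand. Of the 115 arms with an asterisk that were tested, 3 differed in the guide's direction and 13 in the opposite direction. These are 2.61% and 11.3%, against 1.62% and 6.8% of all 309 arms. Of the 194 arms without an asterisk, 2 and 8 did (1.03% and 4.12%). The mark did not always follow abundance. Cbr-Let-7-P6_3p* and Cbr-Mir-31_3p* exceeded their partner strands at all 8 hours. Cbr-Mir-71_3p, which has no asterisk, lay below Cbr-Mir-71_5p at all 8. A tally by abundance was not made. The other strand of the hairpin was tested for 20 of the 23 arms left without -v2 rows, and for 16 of them it was in neither class. The log2 differences of these 16 partner strands were between -0.35 and 0.72, none called, where the arms themselves differed by 0.43 to 2.73 in size. The arms were picked for their differences and the partners were not, so smaller values in the partners are partly built in, and the difference between strands was not tested. In 2 hairpins, Mir-36-o22 and Mir-36-o24, both strands were in the class. For Cbr-Mir-36-o22_3p and for both strands of Mir-36-o24 this held only after removal of the trend.

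**Figure D5:**
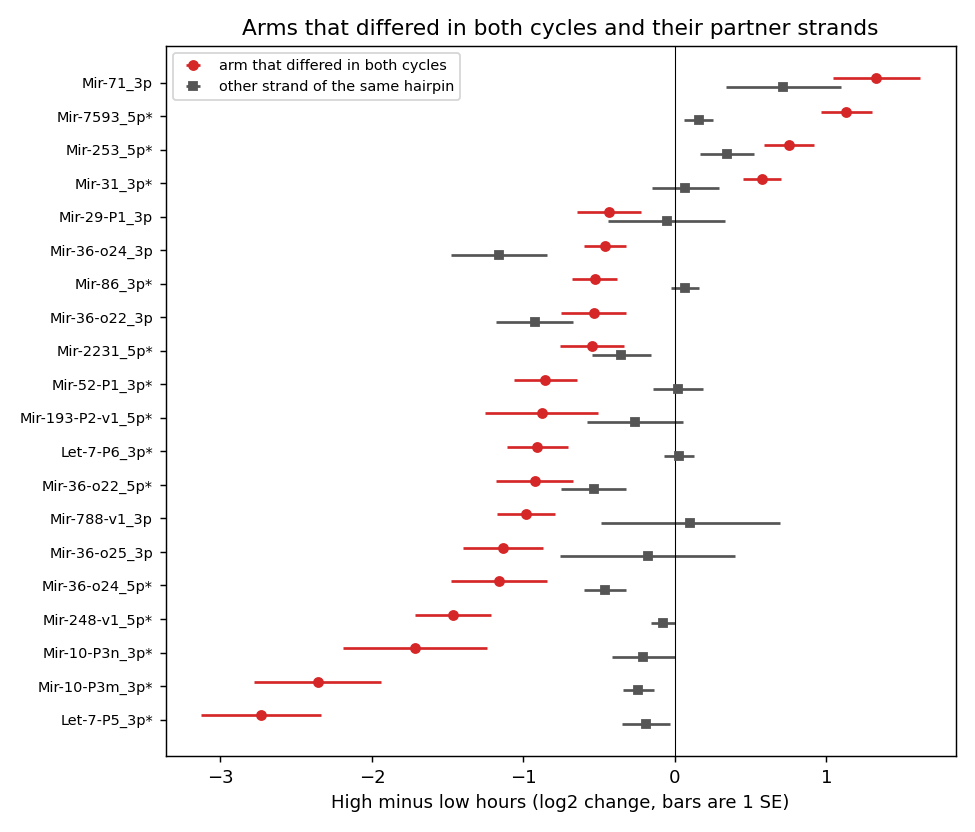
Log2 change of high minus low hours (x axis, bars are 1 standard error derived from edgeR's F statistic over 8 libraries) for the 20 arms that differed in both cycles and whose other strand was tested (red circles), with that other strand (grey squares). For Let-7-P5_3p*, Mir-10-P3m_3p* and Mir-7593_5p* the partners lie at -0.19, -0.24 and 0.16.

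None of the 8 most abundant arms was called. The Bantam family, the counterpart of the *C. elegans* miR-58 family, had 9 of 10 arms tested, none called, with a median of -0.099. Cbr-Bantam-P2_3p was at 540049, 476476, 699600 and 747487 normalized counts at the low and at 573786, 637728, 727496 and 745301 at the high hours, which overlapped (log2 difference -0.057, standard error 0.087). Cbr-Bantam-P1a_3p, Cbr-Bantam-P3_3p and Cbr-Bantam-P4_3p had log2 differences of -0.099, -0.11 and 0.0033. With TMM or median-of-ratios factors the sign of Cbr-Bantam-P4_3p, Cbr-Mir-96-P3_5p and Cbr-Mir-90-P1_3p was negative. Cbr-Mir-54-P3_3p, Cbr-Mir-96-P3_5p, Cbr-Mir-90-P1_3p and Cbr-Mir-10-P1_5p had -0.077, 0.00047, 0.014 and 0.098. No arm of Mir-54 (12 tested), Mir-279 (10), Mir-2 (6), Mir-9 (6), Mir-96 (4) or Mir-193 (8) was called either. Among arms with a mean of at least 100 counts, the largest differences in these lists were as follows. Cbr-Mir-279-o8b_5p* had 0.57 (standard error 0.32), Cbr-Mir-193-P1-v1_5p* -0.64 (0.70), Cbr-Mir-9-P15_5p* -0.35 (0.36), Cbr-Mir-54-P1c_5p* 0.20 (0.35) and Cbr-Mir-2-o4_5p* -0.21 (0.72). For Cbr-Bantam-P1a_5p*, Cbr-Mir-1_3p and Cbr-Mir-124-P12_3p the values were -0.29, 0.11 and -0.11.

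The hours outside the comparison show how far these patterns extend. After 30 h the Cbr-Mir-92-o67_3p guide stayed high, at 590413, 584781 and 630647 normalized counts at 31, 32 and 33 h. Over these hours Cbr-Let-7-P5_3p* was low, at 193, 138 and 114, as was Cbr-Mir-788-v1_3p, at 19435, 17430 and 16265. Cbr-Mir-10-P3n_3p* instead stood at 7544 at 30 h and at 26664 at 33 h, and Cbr-Mir-36-o24_5p* at 5604 and 11809, while the guide stayed high. Cbr-Mir-71_3p stood at 22043, 21377 and 19332 and Cbr-Mir-7593_5p* at 243, 268 and 268, near or above their levels at 29 and 30 h. At 18 h, when the guide was at 349032, Cbr-Let-7-P5_3p* stood at 986, Cbr-Mir-10-P3m_3p* at 207, Cbr-Mir-71_3p at 30184 and Cbr-Mir-7593_5p* at 513. These 18 h values lay on the side of the high hours for each of the 4 arms. Other arms were mixed at 18 h. Cbr-Mir-788-v1_3p at 35134 and Cbr-Mir-10-P3n_3p* at 9934 lay within the range of their high hours. Cbr-Mir-253_5p* at 210 and Cbr-Let-7-P6_3p* at 10320 lay within that of their low hours. At 19, 22, 25 and 28 h, when the guide was at 292064, 385495, 266972 and 406262, the division of the first 4 arms did not hold. Cbr-Let-7-P5_3p* stood at 5138, 1786, 4187 and 2041, above all high hours, and at 19 h within the range of the low hours. Cbr-Mir-10-P3m_3p* stood at 745, 590.3, 1415 and 750.2, also above all high hours, and at 25 h within the range of the low hours. Cbr-Mir-71_3p stood at 18529, 14301, 18482 and 12176, within the range of the high hours at 19 and 25 h and of the low hours at 28 h. Cbr-Mir-7593_5p* stood between the groups, at 158, 199, 150.4 and 148.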

How the data were processed

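AF16 animals were collected hourly between 18 and 33 h, and their small RNAs were sequenced from TruSeq libraries (Illumina). The authors trimmed the adapter, mapped reads with QuasR and Bowtie (up to 100 hits) and deposited counts of sense reads starting within 3 bp of an annotated 5′ end, for 372 arms. Multi-mapping reads can be shared by near-identical arms. The Methods name the *C. briggsae* assembly WS225, the submitters' processing notes ce10. Tool versions were not given in the sources used here. The deposited log2 values (count over library total, times the mean total, plus 8) were recomputed, with a largest difference of 5e-04 over 5952 values.

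Counts of the 8 hours were fitted with edgeR 4.0.16 in R 4.3.3 (glmQLFit, glmQLFTest) on group and linear time, with the library total as library size and 5 residual degrees of freedom, for 313 arms reaching 10 counts in 4 or more libraries. Cycles were compared by an interaction term with cycle added. Standard errors given with edgeR values are the absolute log2 difference divided by the square root of the test's F statistic. Mir-92 rows stayed in the fit. The scripts were tested on simulated data. Alternatives were TMM and median-of-ratios scaling, totals without Mir-92, DESeq2 1.42.0, limma 3.58.1, no filter, no -v2 rows, other time terms, all 16 libraries with the 8 remaining hours as a group of their own, other limits and pseudocounts for the count by cycles, and each library left out.

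Named arms are the Mir-92 rows, called arms whose mean count reached 100 (up to 10 each way), the 8 such arms of each direction with the largest smaller-cycle difference, the 8 most abundant, and in each list the arm with the largest difference among those whose mean count reached 100. Arms outside this rule were named after their values were seen. The lists were passenger strands, guide strands, muscle (Mir-1, Mir-133), neuron (Mir-124), and the families Bantam, Let-7, Mir-2, Mir-9, Mir-10, Mir-36, Mir-54, Mir-71, Mir-96, Mir-193, Mir-279 and Mir-788. Hours, arms and lists were chosen with earlier results of these data known.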

Additional observations from a re-analysis of the deposited data

Results flagged for a closer look

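Some arms had 1 hour far from the other 3 of its group after removal of the linear trend (gap over range above Dixon's 95% value for 4 samples), in 5 of 58 groups tested, of which chance flags about 1 in 20. In 4 of them the 21 h library was low among the low hours: Cbr-Mir-54-P3_3p (ratio 0.866), Cbr-Mir-96-P3_5p (0.884), Cbr-Mir-10-P1_5p (0.911) and Cbr-Bantam-P2_3p (0.883). For Cbr-Mir-36-o20_5p the 30 h library was high among the high hours (0.853).

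The change from low to high hours differed between the cycles, by the interaction test of edgeR, for Cbr-Mir-788-v1_5p* and its identical -v2 row Cbr-Mir-788-v2_5p* (-3.12 on the log2 scale for each, adjusted p = 0.0043) and for Cbr-Mir-85_5p* (-5.95, adjusted p = 0.017).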

How the results depend on the processing

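No paired analysis was possible because the labels carry no replicate numbers, but cycle was tried as a block in place of time. The counts of 1 arm higher and 6 lower were 8 and 15 with DESeq2 and 19 and 21 with cycle in place of time. The higher count was 4 with totals without Mir-92, 3 without a time term and 2 with all 16 libraries. The lower count was 3 without -v2 rows and 3 with limma at either pseudocount. TMM factors and median-of-ratios factors each gave 1 and 4. With each library left out the counts ranged from 0 to 2 and from 0 to 8. The 3 arms differing between the cycles were 57 with DESeq2 and 2 to 44 with each library left out. The 5 arms in the guide's direction in both cycles were 27 with no trend removed, 11 at a limit of 0.15, and 5 to 13 with each library left out, an alternative added after seeing the data. The 21 in the opposite direction were 13 at a limit of 0.5 and 18 to 26 with each library left out. A left-out hour leaves 1 hour on its side of that cycle, which makes the rule easier to meet.

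Of the named arms, Cbr-Mir-96-P3_5p, Cbr-Mir-90-P1_3p and Cbr-Bantam-P4_3p, near 0, took the opposite sign with TMM factors (-0.041, -0.033 and -0.046) and median-of-ratios factors (-0.035, -0.023 and -0.036). Without a time term Cbr-Mir-96-P3_5p, Cbr-Mir-90-P1_3p, Cbr-Mir-10-P1_5p, Cbr-Bantam-P2_3p and Cbr-Mir-279-o8b_5p* were at -0.17, -0.22, -0.0064, 0.12 and -0.021, and with cycle in place of time at -0.19, -0.23 (adjusted p = 0.046 from edgeR), -0.030, 0.14 and -0.16, with Cbr-Mir-193-P1-v1_5p* at 0.38. With all 16 libraries Cbr-Mir-90-P1_3p was at -0.012. With each library left out Cbr-Mir-96-P3_5p ranged from -0.13 to 0.074, Cbr-Mir-10-P1_5p from -0.021 to 0.19, Cbr-Mir-90-P1_3p from -0.0066 to 0.047, Cbr-Bantam-P4_3p from -0.095 to 0.085, Cbr-Mir-2-o4_5p* from -0.93 to 0.57 and Cbr-Mir-9-P15_5p* from -0.62 to 0.0023. Cbr-Let-7-P5_3p*, Cbr-Mir-10-P3m_3p*, Cbr-Mir-788-v1_3p and Cbr-Mir-7593_5p* kept their direction in all 20 alternatives. The cause of these changes was not tested. With 1 library per hour and 5 residual degrees of freedom the spread between animals of 1 hour is unknown.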
